A study of Mus musculus with 2744 samples.

Results

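The 84 genes described here encode subunits of the 5 complexes of oxidative phosphorylation or carry their names. They were chosen by symbol alone (Ndufa, Ndufb, Ndufc, Ndufs, Ndufv, Sdha to Sdhd, Uqcr, Cox4 to Cox8 and Atp5 genes, without those marked as pseudogenes) from the 23968 genes of the count tables. Complex I has 37 of them, complex II 4, complex III 8, complex IV 18 and complex V 17. The rule also takes in Atp5s, Atp5sl and Cox7a2l, which carry such names but are not established subunits, and it misses Ndufab1 of complex I and Cyc1 of complex III. Ndufa4, whose product is now placed with complex IV, is counted in complex I by its symbol.

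The study followed mouse embryonic stem cells on their way to motor neurons in embryoid bodies and read the 3' ends of messenger RNA of sorted single cells by a modified CEL-seq protocol. There are 2 experiments, main and pilot, which the series counts as biological replicates. Both hold Days 2, 3, 4, 5 and 6 and Day 6 cells that the labels mark eGFP++; Day 6 cells marked eGFP+ are 1 plate of main. All groups share the differentiation method, and the labels used here give no line, no genotype and no promoter that drives eGFP. Reads of a group's cells were added up within each experiment, from 361, 422, 227, 332 and 354 cells for Days 2 to 6 of main, 83 eGFP+ and 283 eGFP++ cells, and 75, 69, 57, 75 and 71 cells for Days 2 to 6 and 39 eGFP++ cells of the pilot. Gene reads per sum ran from 16370502 to 100972780.

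Oxidative phosphorylation is the work of the inner mitochondrial membrane. Complex I (NADH dehydrogenase) and complex II (succinate dehydrogenase) pass electrons to ubiquinone, complex III passes them to cytochrome c, and complex IV passes them to oxygen. The proton gradient built by complexes I, III and IV drives complex V, the ATP synthase. Pluripotent cells are known for a strong reliance on glycolysis and neurons for a reliance on respiration. Mitochondrial DNA encodes further subunits, which lie outside this set.

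Marker genes moved with the labels. CPM are a gene's reads as a share of all gene reads of a sum, scaled to the same total for every sum. The 5 pluripotency genes summed to 4325 CPM at Day 2 and 11.9 CPM at Day 6 of main, and to 2921 and 28.7 CPM in the pilot. The 6 motor neuron genes summed to 395 and 257 CPM at Day 6 and to 1044 and 1293 CPM in eGFP++. Endoderm genes and mesoderm and muscle genes each stayed at or under 29.5 CPM. The pilot eGFP++ sum, from 1 plate, stands apart: its 81 genes for cytosolic ribosomal proteins, a list added after values were seen, held 121601 CPM against 209803 to 282013 CPM in the other pilot sums. What part these shifts have in the members' values was not tested.

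Promoters of oxidative phosphorylation genes are known for sites of NRF1, of ETS factors such as GABPA, of YY1 and of the ERR receptors. RefSeq promoter windows (GRCm38.p6, 250 bases before to 50 after the start) were matched for 69 of the 84 genes. Searched on both strands, the NRF1 core GCGCATGC stood in 13.3% of the members' 75 windows and in 2.71% of all 32851 windows of the table. The ETS letters CCGGAAG stood in 21.3% of the members' windows against 8.86% of all, the YY1 letters AAGATGGC in 16% against 2.75%, and the ERR letters TCAAGGTCA in 2.67% against 0.423%. At least 1 of the 4 stood in 44% of the members' windows and in 13.7% of all. Members' windows also had more G and C, with a median of 57.3% against 52.7%; its part in the result was not tested. YY1 letters were found at 7 of 32 genes of complex I and 4 of 16 of complex V. They were found at 0 of 3 genes of complex II, 0 of 5 of complex III and 0 of 13 of complex IV. The windows of 4 genes are shown: Uqcrh was the member called over time, Ndufa4 had the largest fitted difference upwards in eGFP++ among members with at least 20 CPM, and Uqcr11 and Atp5k hold both NRF1 and ETS letters. Capitals mark these letters on either strand, and in Atp5k the NRF1 letters of both strands overlap.
Uqcrh: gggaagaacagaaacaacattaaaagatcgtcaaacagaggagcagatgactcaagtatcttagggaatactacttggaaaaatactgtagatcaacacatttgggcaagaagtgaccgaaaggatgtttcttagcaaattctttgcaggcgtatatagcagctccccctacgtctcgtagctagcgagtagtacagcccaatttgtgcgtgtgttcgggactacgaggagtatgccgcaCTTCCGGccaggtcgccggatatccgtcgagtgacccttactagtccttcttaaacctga
Ndufa4: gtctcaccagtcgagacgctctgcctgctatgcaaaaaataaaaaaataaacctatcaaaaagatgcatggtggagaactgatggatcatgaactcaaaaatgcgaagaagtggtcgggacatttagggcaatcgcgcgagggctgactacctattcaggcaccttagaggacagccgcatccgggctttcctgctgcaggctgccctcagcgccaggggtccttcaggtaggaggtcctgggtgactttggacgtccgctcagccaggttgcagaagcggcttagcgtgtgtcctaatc
Uqcr11: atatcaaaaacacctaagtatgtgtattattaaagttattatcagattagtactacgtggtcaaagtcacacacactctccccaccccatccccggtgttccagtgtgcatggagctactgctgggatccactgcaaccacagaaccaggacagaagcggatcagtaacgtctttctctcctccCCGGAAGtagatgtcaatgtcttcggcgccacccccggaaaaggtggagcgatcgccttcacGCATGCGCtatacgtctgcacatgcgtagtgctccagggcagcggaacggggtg
Atp5k: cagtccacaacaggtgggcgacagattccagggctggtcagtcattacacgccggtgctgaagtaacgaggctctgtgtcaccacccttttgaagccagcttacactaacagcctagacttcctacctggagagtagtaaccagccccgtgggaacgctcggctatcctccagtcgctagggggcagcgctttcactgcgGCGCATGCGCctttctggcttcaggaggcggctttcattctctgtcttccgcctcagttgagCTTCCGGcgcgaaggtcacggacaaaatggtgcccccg
They lie at chr4:116075021-116075320, chr6:11907401-11907700, chr10:80406772-80407071 and chr5:108434350-108434649, all on the minus strand and written 5' to 3' along the gene. The ETS letters of Uqcrh begin 10 bases before its start. In Uqcr11 the NRF1 letters begin 4 bases and the ETS letters 66 bases before the start. The Ndufa4 window holds none of the 4 motifs. A match is a description of letters, not of binding.

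As a set, these genes took about the same share of the reads at Day 6 as at Day 2 in main. All 84 summed to 30472, 33075, 32351, 31521 and 30718 CPM on Days 2 to 6 of main. The pilot had 27135, 23096, 20709, 27256 and 30276 CPM, lowest at Day 4 and highest at Day 6. Main plates spread from 27507 to 32242 CPM at Day 2 and from 29037 to 32080.2 CPM at Day 6, so the sums of these days differ by less than their plates. The 5 genes with the most reads (Cox6c, Cox7c, Atp5a1, Atp5b and Atp5j2) held 32% of the members' reads. Without them the log2 ratio of Day 6 to Day 2 was 0.24 in main and 0.41 in the pilot, against 0.012 and 0.16 with them.

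Complex I, the entry point for electrons of NADH, had a higher sum at Day 6 than at Day 2, 1.22-fold in main and 1.45-fold in the pilot. Sums of complexes are described with no test. It held 7430.0, 9084, 9655, 8969.8 and 9063 CPM on Days 2 to 6 of main and 6123, 5431, 4983, 7355 and 8874 CPM in the pilot. Plates did not overlap between Days 2 and 6 in main (6576 to 8129.7 and 8604 to 9784 CPM) or in the pilot (5096 to 6807 and 8327 to 9613 CPM). Main was already higher at Day 3, and the pilot only from Day 5. Between Days 2 and 6, complex III had 2021 and 2160.2 CPM in main and 1912 and 2107 CPM in the pilot, also higher in both. Complex III plates of these days overlapped in main (1672 to 2182 and 1966 to 2402 CPM). They did not in the pilot (1736 to 2029 and 2087 to 2135 CPM). The difference of Uqcrh alone, described below, was larger than that of the complex III sum in both experiments. Complex IV had 11617 and 10262 CPM in main and 9255 and 10685 CPM in the pilot, in opposite directions. In main the fall of Cox7c alone, described below, was larger than that of the complex IV sum. Complex V had 9035 and 8774 CPM in main and 9436 and 8321 CPM in the pilot. Atp5a1 and Atp5b together, described below, fell by more than the complex V sum in both experiments. Complex II, the smallest, had 369 and 459 CPM in main and 409 and 289 CPM in the pilot.

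**Figure D1:**
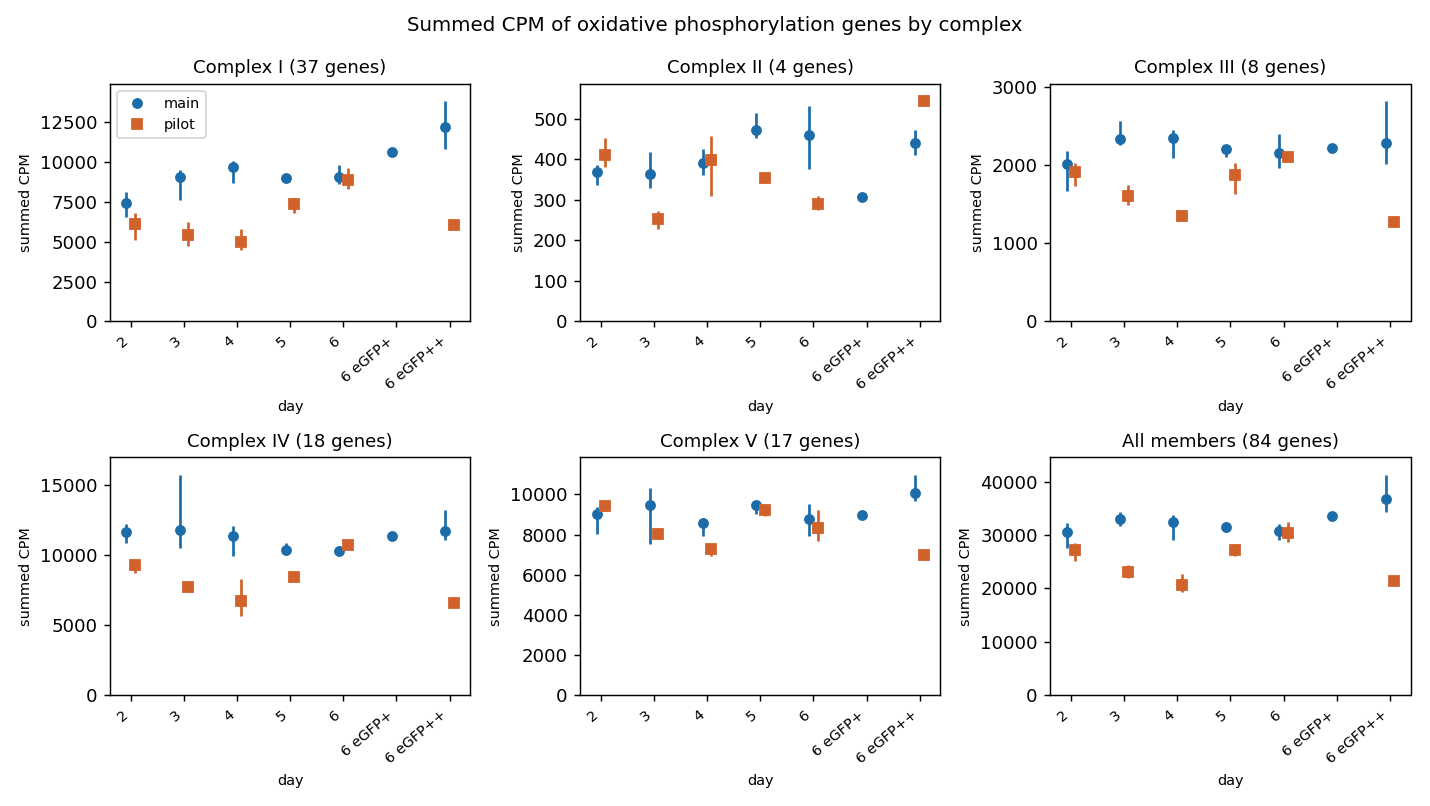
Summed CPM (y axis) of each complex and of all 84 genes by day and eGFP group (x axis). Points are sums over the cells of a group in main (circles) and pilot (squares), and lines run from the lowest to the highest plate. In the complex I panel Day 6 lies above Day 2 in both experiments, while eGFP++ lies above Day 6 in main and below it in the pilot.

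In single cells the share was alike over the days of main and lower on Days 3 and 4 than on Day 6 of the pilot. The median main cell had 3.07% of its gene reads in these genes at Day 2, 3.31% at Day 3, 3.18% at Day 4, 3.19% at Day 5 and 3.00% at Day 6. The interquartile ranges of main overlapped (2.74% to 3.39% at Day 2, 2.53% to 3.54% at Day 6). Pilot medians were 2.63%, 2.31%, 2.21%, 2.75% and 2.96%. There the interquartile ranges of Day 3 (1.86% to 2.59%) and Day 4 (1.66% to 2.56%) lay below that of Day 6 (2.63% to 3.38%). With cells thinned to 10000 reads, the median cell had reads of 55 members at Day 2 and 47 at Day 6 in main, and of 26 and 50 in the pilot. These numbers moved with the genes detected per cell before thinning (4439 and 2310.5 in main, 1810 and 3361 in the pilot), whose part in the result was not tested.

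Per spike-in read, the members were lower at Day 6 than at Day 2. They had 0.993, 0.507, 0.302, 0.305 and 0.166 reads per spike-in read on Days 2 to 6 of main and 0.544, 0.644, 0.376, 0.264 and 0.166 in the pilot, where Day 3 was the highest day. The other genes had a like shift: with spike-in reads as the library size, the median log2 change from Day 2 to Day 6 was -2.05 over all tested genes and -1.98 over the members. Under this scaling all 81 tested members were lower and edgeR called 34 of them. The share of all genes called under it is not given, so this count is not read as particular to the members. Other values here are relative to the other genes of a sum. In sums of cells, fewer cells of a type and less RNA per cell cannot be told apart.

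**Figure D2:**
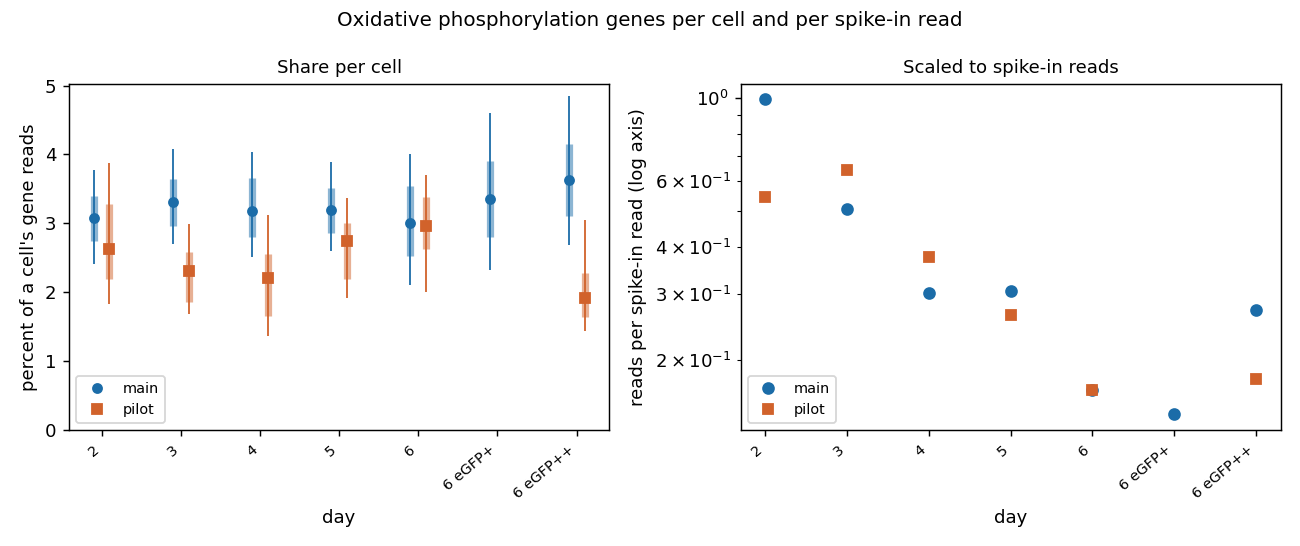
Left, percent of a cell's gene reads in the 84 genes (y axis) by group (x axis); points are medians, thick lines the interquartile range and thin lines the 10th to 90th percentile of cells. Right, reads of the 84 genes per spike-in read on a log axis. The share per main cell runs from 3.00% to 3.31% over the days, while reads per spike-in read run from 0.993 to 0.166.

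Single members were tested with edgeR over all genes; 81 of the 84 passed the filter on low counts, and 80 did for a slope per day. Ndufs5 had 0 reads in all 13 sums, and Cox4i2 and Cox8b had too few. Between Days 6 and 2, 0 of 81 members were called, where 0.833% of all 16080 genes were. Unadjusted, 9 members had p under 0.05 (higher Atp5d, Cox6b2, Ndufa3, Ndufb11 and Uqcrh, lower Atp5a1, Atp5b, Cox7b2 and Ndufa4), against 13.7% of all genes. DESeq2 called 2 members lower, Cox7b2 and Ndufa4l2, where it called 12% of all genes. The members' median log2 change was 0.18 and that of all tested genes 0.17. By complex the medians were 0.42 for I, -0.13 for II, 0.026 for III, 0.078 for IV and 0.027 for V.

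Of the 74 members with at least 20 CPM on average, 45 were higher at Day 6 than at Day 2 in both experiments, where 38.8% of all 6027 genes at that level were. Another 11 were lower in both, where 33.9% of all were. The members sit higher among these genes, with a median of 235 CPM against 50.6 CPM. They also moved less: 94.6% stayed within 2-fold in main and 75.7% in the pilot, against 62.3% and 51.8% of the 6027. Log2 ratios of main and pilot had a Spearman correlation of 0.48 across the 74 genes and 0.66 across the 6027, and genes are not independent replicates. Of 36 tested complex I members, 27 were higher in both experiments and 5 lower in both. It was 2 and 1 of 4 for complex II and 2 and 1 of 8 for complex III. For complex IV it was 7 and 3 of 16, and for complex V 8 and 5 of 17. These counts by complex take in tested members under 20 CPM, to which the shares of the 6027 genes do not apply. No share of all tested genes is given for this count, so it is not read as a result about a complex. By sign of the fitted log2 change, 27 complex I members were higher and 9 lower. Of all 16080 tested genes, 8632 were higher and 7448 lower by that sign.

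**Figure D3:**
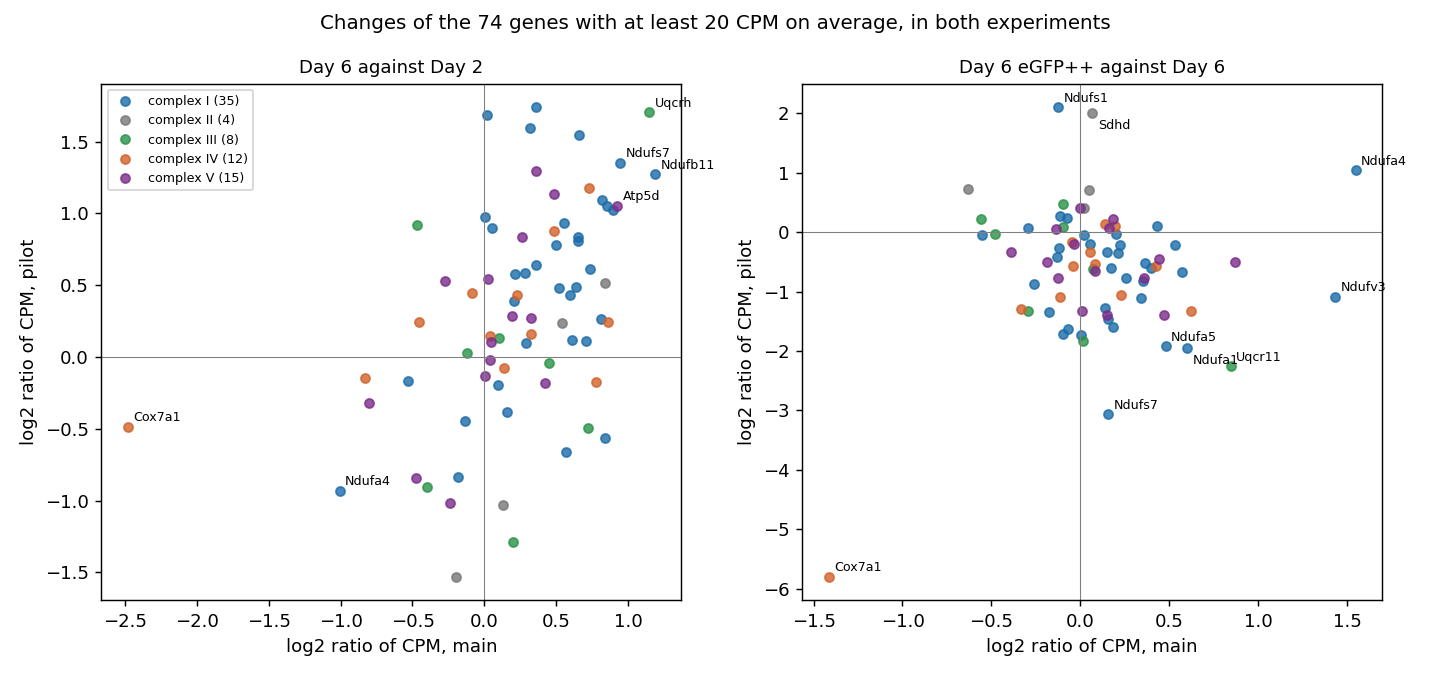
Log2 ratio of CPM in main (x axis) and pilot (y axis) for the 74 members with at least 20 CPM, coloured by complex, with 3 reads added to each sum. For Day 6 against Day 2 (left) 45 genes lie to the upper right and 11 to the lower left. For eGFP++ against Day 6 (right) these counts are 10 and 18, with Ndufa4 far to the upper right and Cox7a1 far to the lower left.

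Steps from day to day gave no called member by edgeR. From Day 2 to Day 3, 0 were called (0.0498% of all genes), 0 had an unadjusted p under 0.05 (3.65%) and DESeq2 called 0 (0.908%). From Day 3 to Day 4, 0 were called (0.0%), 2 had an unadjusted p under 0.05 (Cox7a2l higher, Ndufa4l2 lower; 2.69%) and DESeq2 called 1, Ndufa4l2 (0.964%). From Day 4 to Day 5, 0 were called (0.0%), 1 had an unadjusted p under 0.05 (Atp5k, higher; 3.7%) and DESeq2 called 0 (1.14%). Between the last days, 0 were called (0.0%), 0 had an unadjusted p under 0.05 (3.17%) and DESeq2 called 1, Cox7b2, lower (0.802%), with reads in 2 pilot cells at Day 5 and in 0 other cells of those days.

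A slope over Days 2 to 6 used 10 sums. It called 1 of 80 members, Uqcrh, where 4.38% of all 15063 genes were called. Unadjusted, 12 members had p under 0.05 (19.3% of all genes): Uqcrh, Cox6b2, Ndufa3, Ndufb3, Ndufb5, Ndufb11, Atp5d and Atp5h upwards, and Atp5a1, Atp5b, Cox7a1 and Ndufa4 downwards. DESeq2 called 7 of them (16% of all genes). The 8 upward slopes are negative under spike-in scaling. The members' median slope was 0.050 per day on the log2 scale against 0.019 for all genes.

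Uqcrh, the hinge protein of complex III that joins cytochrome c1 with cytochrome c, lies at chr4:116066965-116075070 (GRCm38.p6). It had 175, 267, 340.1, 339.9 and 388 CPM on Days 2 to 6 of main and 117, 163, 146, 345 and 381 CPM in the pilot. Both experiments ended above their start, 2.22-fold in main and 3.26-fold in the pilot, where most of the step lay between Days 4 and 5. Plates of Days 2 and 6 did not overlap in main (117 to 204 and 284 to 571 CPM) or in the pilot (79.5 to 172 and 364 to 403 CPM). The slope was 0.33 ± 0.082 (SE) per day on the log2 scale (edgeR adjusted p = 0.0448). The call was kept without Day 4 of the pilot (edgeR adjusted p = 0.0213) and lost without any one of the other 9 sums (edgeR adjusted p 0.0530 to 0.177). Under spike-in scaling the slope was -0.22 per day, where the members' median was -0.48. Of thinned main cells, 64.5% (59.4% to 69.3%) had a Uqcrh read at Day 2 and 74% (69.2% to 78.3%) at Day 6, with 95% Wilson intervals in brackets. The pilot shares were 32.4% (22.9% to 43.7%) and 73.2% (61.9% to 82.1%). Unthinned, they were 89.2% and 89% in main and 46.7% and 90.1% in the pilot.

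Of the other complex III members, Uqcrb, a small subunit, was slightly higher at Day 6 in both experiments, with 371 and 398 CPM in main and 272 and 298 CPM in the pilot at Days 2 and 6. For the same days, Uqcr10, another small subunit, had 280.1 and 212 CPM in main and 533 and 285 CPM in the pilot. Uqcrc1, a core protein, had 62.5 and 71.9 CPM in main and 112 and 45.8 CPM in the pilot. Uqcrfs1, the Rieske iron-sulfur protein, had 164 and 223 CPM in main and 176 and 171 CPM in the pilot. None of these passed the test, and of Uqcr10, Uqcrc1 and Uqcrfs1 only Uqcr10 had 1 direction, lower, in both experiments. Uqcr11, a small subunit, had 616 and 444 CPM in main and 320.2 and 606 CPM in the pilot.

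In complex I, Ndufb11 had the largest fitted difference upwards between Days 2 and 6. This accessory subunit of the membrane arm, encoded on chromosome X, had 69, 119, 156, 131 and 157 CPM on Days 2 to 6 of main and 60.3, 67.2, 133, 97.9 and 146 CPM in the pilot. In each experiment Day 2 was its lowest day. The log2 change was 1.15 ± 0.43 (SE; edgeR adjusted p = 0.291), and DESeq2 called the slope (adjusted p = 0.0393). Ndufa3, a small accessory subunit, had 142, 246, 284, 294 and 258 CPM on those days of main and 104, 128, 160.0, 222 and 216 CPM in the pilot, and its slope was called by DESeq2 (adjusted p = 0.0303) but not by edgeR (adjusted p = 0.152). Ndufs7, an iron-sulfur subunit near the ubiquinone site, had 80.9 and 155 CPM in main and 41.7 and 107 CPM in the pilot at Days 2 and 6. Ndufs6, an accessory subunit, had 198 and 174 CPM in main and 283 and 158 CPM in the pilot. Neither passed the test, with edgeR adjusted p = 0.532 and 0.525. Of the core subunits of the matrix arm, Ndufs1 had 51.6 and 76.7 CPM in main and 89.7 and 56.8 CPM in the pilot, in opposite directions. Ndufv1, which binds NADH, was lower at Day 6 in both, with 212 and 193 CPM in main and 261 and 192 CPM in the pilot.

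Ndufa4 went against most Nduf genes. Its product was first described in complex I and is now placed with complex IV. It had 992, 946, 829.5, 782 and 494 CPM on Days 2 to 6 of main and 532, 285, 175, 245 and 279 CPM in the pilot. Day 2 was 2.01-fold above Day 6 in main and 1.9-fold above it in the pilot. The main plates of these days overlapped (586 to 1377 and 337 to 655 CPM) and the pilot plates did not (336 to 662 and 229 to 316 CPM). The slope was -0.25 ± 0.087 (SE) per day (edgeR adjusted p = 0.130). With cells thinned to equal reads it was called (edgeR adjusted p = 0.0308), but with cells counted in place of reads the slope turned to +0.030 per day.

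**Figure D4:**
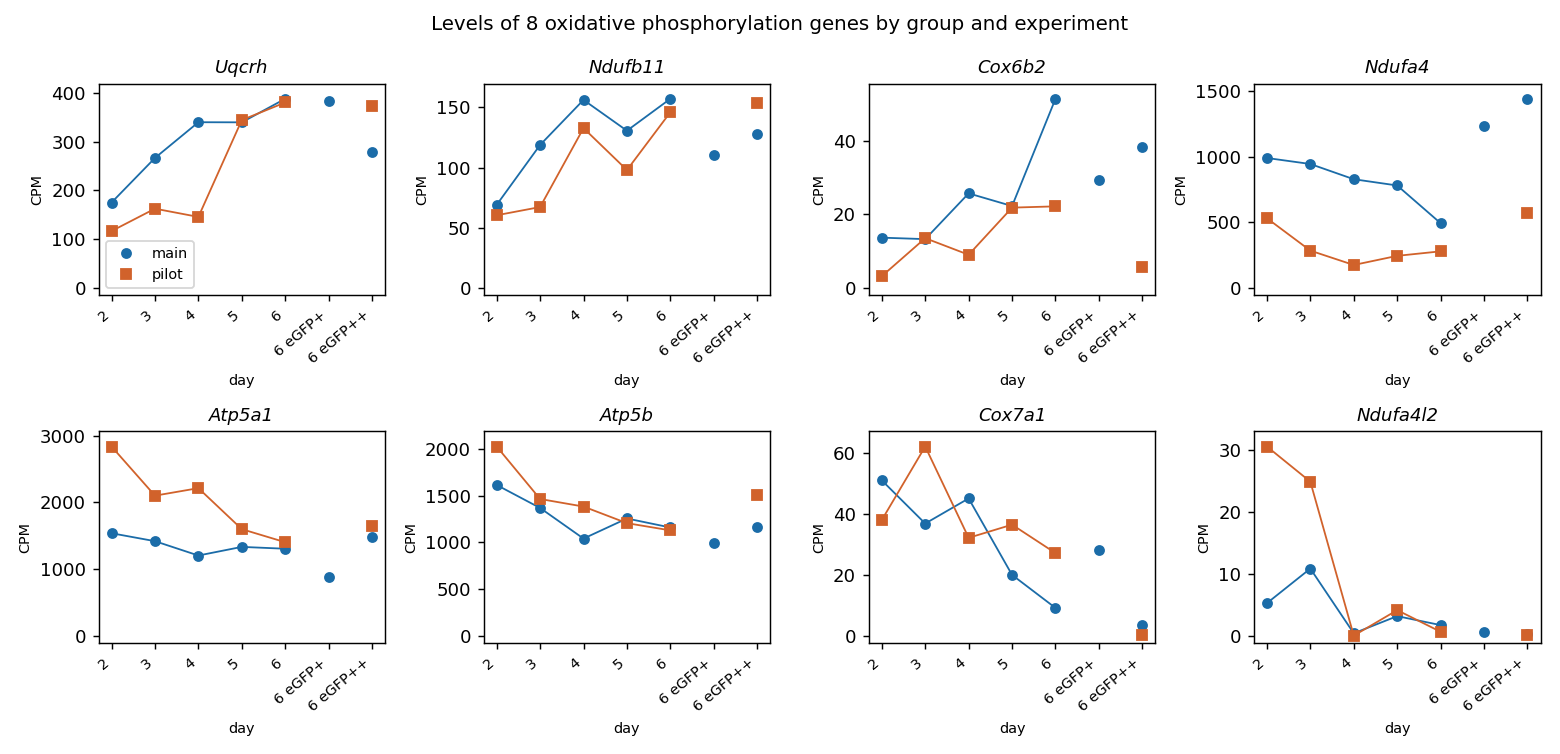
CPM (y axis) of 8 members by day and eGFP group (x axis) in main (circles) and pilot (squares); lines join Days 2 to 6. Uqcrh runs from 175 to 388 CPM in main and from 117 to 381 CPM in the pilot, and Ndufa4 is lower at Day 6 than at Day 2 and higher in eGFP++ in both.

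Its paralogue Ndufa4l2, known as a target of the hypoxia factor HIF1, was low and early. It had 5.25, 10.8, 0.377, 3.16 and 1.71 CPM on Days 2 to 6 of main and 30.6, 24.9, 0, 4.12 and 0.623 CPM in the pilot. Day 3 was 28.8-fold above Day 4 in main and at least 500-fold in the pilot, where Day 4 had 0 reads, against a floor of 3 reads per sum. edgeR did not call this step (unadjusted p = 0.0211), and DESeq2 did (adjusted p = 0.00403). After thinning, 7.58% (5.42% to 10.5%) of main Day 3 cells had a read and 0 of 226 Day 4 cells did, which allows a share of up to 1.33% of cells with a read at that thinned depth only. Unthinned, the main shares were 29.6% and 3.52%. The pilot reads came from few cells. At Day 3 they came from 14 of 69 cells, of which 1 held 477 of 1790 reads. At Day 2 they came from 8 of 75 cells, of which 1 held 1022 of 1607 reads.

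Complex IV has paralogue pairs in which one form is widespread and the other known from muscle, heart, lung or testis. Nearly all reads came from the widespread forms. Cox4i2 had at most 7 reads in a sum, Cox6a2 at most 28, Cox8b at most 7 and Cox8c at most 115. Their partners Cox4i1, Cox6a1 and Cox8a ranged over the 13 sums from 252 to 1021, from 231 to 576 and from 189.7 to 584 CPM. Cox7a1, Cox7b2 and Cox6b2 were the tissue forms with more than traces.

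Cox7a1, the form of heart and skeletal muscle, had 51.1, 36.9, 45.2, 20 and 9.12 CPM on Days 2 to 6 of main and 38.1, 62.3, 32.2, 36.5 and 27.2 CPM in the pilot. Day 6 was its lowest day in both. The pilot reads came from 8, 7, 6, 11 and 11 cells on Days 2 to 6, so the pilot order of days rests on few cells. A single cell held 2724 of 4478 pilot reads at Day 3, 1099 of 1941 at Day 4 and 1443 of 2206 at Day 5. The Cox7a1 share of the reads of Cox7a1, Cox7a2 and Cox7a2l went from 7.09% at Day 2 to 1.03% at Day 6 in main and from 4.23% to 2.69% in the pilot. The slope was -0.40 ± 0.14 (SE) per day (edgeR adjusted p = 0.142; DESeq2 adjusted p = 0.0309). The 5 mesoderm and muscle markers summed to 1.68, 2.63, 8.03, 29.5 and 11.6 CPM on Days 2 to 6 of main. In the pilot they summed to 0.0761, 0, 1.79, 0 and 0 CPM. Their part in the Cox7a1 values was not tested.

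Cox7b2, the paralogue of Cox7b, had 562 reads at Day 2 of main and 783 at Day 2 of the pilot, and 0 reads at Day 6 of both. These came from 36 of the main cells and 3 of the pilot cells, of which 1 held 778 of the reads. Day 6 was at least 145-fold lower in main and at least 319-fold lower in the pilot, with the same floor (edgeR adjusted p = 0.317), so the pilot bound rests on 1 cell. Cox6b2, known from testis, went the other way. It had 13.6, 13.2, 25.7, 22.2 and 51.4 CPM on Days 2 to 6 of main and 3.18, 13.5, 8.99, 21.8 and 22.1 CPM in the pilot. Day 6 was its highest day in both, 3.76-fold and 6.97-fold above Day 2. The Day 2 reads of the pilot came from 3 cells. Its slope was 0.48 ± 0.16 (SE) per day (edgeR adjusted p = 0.119; DESeq2 adjusted p = 0.00750), and -0.11 under spike-in scaling. Its widespread partner Cox6b1 had 466 and 772 CPM in main and 319 and 719.7 CPM in the pilot at Days 2 and 6. Cox4i1, the widespread form of a large nuclear-encoded subunit, had 729 and 1021 CPM in main and 458 and 842 CPM in the pilot, higher at Day 6 in both (edgeR adjusted p = 0.511). Cox7c, a small subunit, had 3693 and 2077 CPM in main and 2764 and 2494 CPM in the pilot.

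In complex V, the alpha and beta subunits of the catalytic head had slopes below 0. Atp5a1 (alpha) had 1536, 1417, 1202, 1331 and 1303 CPM on Days 2 to 6 of main and 2837, 2099, 2212, 1597 and 1401 CPM in the pilot. Atp5b (beta) had 1615, 1368, 1040.1, 1255 and 1159 CPM in main and 2027, 1464, 1383, 1206 and 1128 CPM in the pilot. For both genes Day 2 was the highest day of each experiment. Day 2 was 1.18-fold and 2.02-fold above Day 6 for Atp5a1, and 1.39-fold and 1.80-fold for Atp5b, in main and pilot. The slopes were -0.19 ± 0.055 and -0.19 ± 0.055 (SE) per day (edgeR adjusted p = 0.0750 and 0.0724; DESeq2 adjusted p = 0.0432 and 0.0348).

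Atp5d and Atp5h had higher values at Day 6 in both experiments. Atp5d, the delta subunit of the central stalk, had 164 and 312 CPM in main and 102 and 211 CPM in the pilot at Days 2 and 6. Atp5h, subunit d of the side stalk, had 579 and 742 CPM in main and 424 and 1041 CPM in the pilot. Neither passed the test for these days (edgeR adjusted p = 0.363 and 0.416). The Atp5g1, Atp5g2 and Atp5g3 genes encode the same mature c subunit of the rotor ring; Atp5g1 held 23.5% of their reads at Day 2 and 14.6% at Day 6 in main, and 17.7% and 14.3% in the pilot.

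Complex II, also an enzyme of the citric acid cycle, had no member past the test. At Days 2 and 6, its iron-sulfur subunit Sdhb had 72.2 and 129 CPM in main and 61.7 and 88.1 CPM in the pilot, higher in both. The flavoprotein Sdha had 78.2 and 85.3 CPM in main and 164 and 80.6 CPM in the pilot. The membrane anchor Sdhd had 126 and 109.9 CPM in main and 115 and 39.8 CPM in the pilot, and the anchor Sdhc had 92.5 and 134 CPM in main and 68.4 and 80.5 CPM in the pilot.

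Day 6 eGFP++ cells were then set against Day 6 cells. The members' sum went in opposite directions in the 2 experiments. In eGFP++ and at Day 6 it was 36691 and 30718 CPM in main and 21407 and 30276 CPM in the pilot. Main plates did not overlap (34345 to 41218 and 29037 to 32080.2 CPM), and the pilot eGFP++ plate lay below both Day 6 plates (28748 to 32342 CPM). Complex I had 12191 and 9063 CPM in main and 6062 and 8874 CPM in the pilot, and complexes IV and V were likewise higher in main and lower in the pilot. Ndufa4, counted in complex I by its symbol, and Ndufv3 made up most of the complex I difference in main. Both are described below. Complex III was lower in the pilot, but in main its plates overlapped (2017 to 2823 and 1966 to 2402 CPM) and its log2 ratio of 0.084 ran from -0.047 to 0.17 with single plates left out. Complex II had 439.8 and 459 CPM in main and 543 and 289 CPM in the pilot. The single eGFP+ sum had 33492 CPM in all and 10649.9 CPM in complex I, between Day 6 and eGFP++ of main.

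No member was called in eGFP++ against Day 6 (0 of 81, where 0.0311% of all genes were). Unadjusted, 2 members had p under 0.05, Ndufa4 higher and Cox7a1 lower (6.29% of all genes). DESeq2 called 2, Cox7b2 higher and Cox7a1 lower (3.18% of all genes); Cox7b2 had reads in 1 main eGFP++ cell and in 0 other cells of the groups compared. The members' median log2 difference was -0.20 and that of all genes -0.52. By sign, 23 members were higher and 58 lower, and of all 16080 tested genes 6047 were higher and 10033 lower. With the scaling of DESeq2 in edgeR the medians were -0.038 and -0.40, with 36 members higher and 45 lower. With spike-in scaling they were 0.31 and -0.068, with 59 members higher and 22 lower. Signs of all genes are not given for these other scalings. Among the 74 members with at least 20 CPM, 10 were higher in both experiments, where 25.8% of all genes at that level were, and 18 were lower in both, where 30.7% were.

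Ndufa4 was higher in eGFP++ in both experiments. In eGFP++ and at Day 6 it had 1444 and 494 CPM in main and 575 and 279 CPM in the pilot, and the eGFP+ sum had 1233 CPM. Main plates did not overlap (1304 to 1568 CPM in eGFP++, 337 to 655 CPM at Day 6), and the pilot eGFP++ plate lay above both Day 6 plates (229 to 316 CPM). The log2 difference was 1.27 ± 0.42 (SE; edgeR adjusted p = 0.673), which does not pass the test. Of thinned main cells, 84.8% (80.1% to 88.5%) in eGFP++ and 70.3% (65.4% to 74.9%) at Day 6 had a read. In the pilot it was 41% (27.1% to 56.6%) and 71.8% (60.5% to 81%), against the order of the CPM, so no order is read from these shares. Unthinned, the pilot shares were 89.7% and 85.9%.

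Cox7a1 was lower in eGFP++ in both experiments. In eGFP++ and at Day 6 it had 3.38 and 9.12 CPM in main and 0.305 and 27.2 CPM in the pilot, which is 2.70-fold and 89-fold lower; the pilot eGFP++ sum held 5 reads. The eGFP+ sum had 28.2 CPM, all from 1 of its 83 cells. The log2 difference was -3.31 ± 1.16 (SE; edgeR adjusted p = 0.712; DESeq2 adjusted p = 0.0473). After thinning, 1.42% of main eGFP++ cells and 4.24% of Day 6 cells had a read. In the pilot it was 0 of 39 eGFP++ cells and 8.45% of Day 6 cells. Unthinned, the shares were 2.12% and 4.80% in main and 7.69% and 15.5% in the pilot.

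Several other members with large fitted differences changed side between experiments. In eGFP++ and at Day 6, Ndufs1 had 70.4 and 76.7 CPM in main and 244 and 56.8 CPM in the pilot. Ndufs7 had 173 and 155 CPM in main and 12.5 and 107 CPM in the pilot. Ndufa1, a small subunit encoded on chromosome X, had 462 and 304 CPM in main and 86.1 and 332 CPM in the pilot. Of complex IV, Cox4i1 was lower in both, with 809.9 and 1021 CPM in main and 343 and 842 CPM in the pilot. Cox5a and Cox5b were slightly higher in both, Cox5a with 489 and 443 CPM in main and 385 and 352 CPM in the pilot and Cox5b with 689.7 and 602 CPM in main and 699 and 654 CPM in the pilot. In complex V, Atp5b had 1159 and 1159 CPM in main and 1502 and 1128 CPM in the pilot and Atp5a1 had 1477 and 1303 CPM in main and 1637 and 1401 CPM in the pilot. Atp5a1 was higher in eGFP++ of both experiments, and Atp5b differed by under 1 CPM in main. Atp5e had 270.3 and 268 CPM in main and 113 and 284 CPM in the pilot, and Atp5g1 had 327 and 295 CPM in main and 81.7 and 216 CPM in the pilot. Ndufv3, singled out after its values were seen, had 1547 and 573 CPM in main and 387 and 824 CPM in the pilot. None of these passed the test.

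The makeup of the groups moved beside these values. The 4 genes of dividing cells summed to 830.3 CPM at Day 6 and 176 CPM in eGFP++ of main, and to 1543 and 82.2 CPM in the pilot. The 5 neuron genes summed to 1556 and 3654 CPM in main and to 1401 and 4064 CPM in the pilot. The 4 astrocyte and oligodendrocyte genes summed to 53.3 and 83.7 CPM and to 77.2 and 269.8 CPM, with Aqp4 and Gfap at 0 throughout. In eGFP+, dividing cell genes summed to 1081 CPM and neuron genes to 825 CPM. Their part in the members' values was not tested.

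Genes around the complexes came from hand-written lists and were tested in the same fits. Between Days 2 and 6 (0.833% of all genes called) the only call was Ldhb, which encodes lactate dehydrogenase B, 1 of 19 glycolysis genes. It fell from 282 to 61.9 CPM in main and from 490.2 to 51.6 CPM in the pilot, a log2 change of -2.87 ± 0.49 (SE; edgeR adjusted p = 0.0272). The glycolysis genes as a whole summed to 8446 and 10509 CPM in main and 11931 and 10844 CPM in the pilot. For the slope, for which 4.38% of all 15063 genes were called, Ldhb and the glucose transporter Slc2a3 fell (edgeR adjusted p = 0.00517 and 0.0370) and 0 of the list rose. Of 16 genes of the citric acid cycle and pyruvate dehydrogenase, Idh3a and Ogdh fell and 0 rose (edgeR adjusted p = 0.0475 and 0.0483); both calls are lost with the scaling of DESeq2 in edgeR (adjusted p = 0.0518 and 0.0562).

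Assembly factors, regulators and carriers gave single calls for the slope, against the same 4.38% of all genes. Nubpl, which brings iron-sulfur clusters to complex I, fell, as 1 of 14 assembly genes of complex I, from 110.1 to 24.5 CPM in main and from 149 to 37.5 CPM in the pilot (edgeR adjusted p = 0.0123). Cox20, a chaperone of complex IV, rose, as 1 of 15, from 15.8 to 47.3 CPM and from 5.88 to 78 CPM (edgeR adjusted p = 0.0184), with a slope of 0.12 per day and no call under spike-in scaling. Esrrb, an ERR receptor and pluripotency factor, fell, as 1 of 14 regulators, from 30.4 to 0.487 CPM and from 178 to 2.65 CPM (edgeR adjusted p = 0.00389). Slc25a4, an exchanger of ADP and ATP, rose, as 1 of 6 carriers and porins, from 318 to 893 CPM and from 421 to 843 CPM (edgeR adjusted p = 0.0435), with a slope of -0.21 per day under spike-in scaling. None passed among 2 cytochrome c and c1 genes, 7 assembly genes of complexes II and III, 4 of ATP synthase, 6 uncoupling and antioxidant genes, or for Ndufab1. In eGFP++ against Day 6 and in the steps between days, 0 genes of these lists were called.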

How the data were processed

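Reads of single mouse cells were measured with a modified CEL-seq protocol. The deposited values are whole-number counts of reads per gene and cell, without molecular identifiers, so amplification duplicates are part of them. The submitters' processing notes name TopHat2 2.1.1, HTSeq 0.6.1 and mm10; the handling of reads that align to several places is not stated there. Cells with at least 500 detected genes were kept (2448 of 2744) and their reads summed per group and experiment, 16370502 to 100972780 gene reads per sum. The summary lines of the counting step held 34.9% of all reads and were left out, as were 27 names that differed between tables and 40 columns that matched no sample. CPM were computed from all gene reads of a sum, with no further scaling; fits used TMM scaling.

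The members and the lists were chosen with earlier results of these data known. Members named singly were those called in a fit, the 2 largest rises and 2 largest falls per complex from Day 2 to Day 6 among members with at least 20 CPM on average, the same for eGFP++ in complexes I, IV and V, fixed paralogue families, and core subunits. One item that this rule names is not reported here. Of the other lists, up to 2 called genes were named. Members with an unadjusted p under 0.05 and plates left out for few genes were chosen after their values were seen.

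edgeR 4.0.16 in R 4.3.3 (filterByExpr, quasi-likelihood test, two-sided, Benjamini-Hochberg over all genes, threshold 0.05) was fitted to 12 sums with group and experiment as terms (16080 genes, 5 residual degrees of freedom). A slope per day was fitted to the 10 sums of Days 2 to 6 (15063 genes, 7 residual degrees of freedom). The replicate is the experiment, which the series counts as a biological replicate. As experiment is a term, a general difference between the 2 experiments is taken out. The p-values rest on how far differences between groups disagree between the 2 experiments, pooled over the groups. For the slope, departures of days from a straight line count as spread too. Pairing by experiment comes from the labels: main minus pilot differences of one group correlated with those of another at 0.048 to 0.251 across genes (median 0.107, 15 pairs). Alternatives were DESeq2 1.42.0, other scalings, filters and weights of cells, no replicate block, and leaving out each sum. Shares of cells used cells thinned to 10000 reads, with 95% Wilson intervals that cover counting error only. Promoter letters came from RefSeq (GRCm38.p6). The remaining steps ran in Python 3.11.15 (pandas 2.3.3, scipy 1.17.1, numpy 2.4.6), and plots were drawn by matplotlib 3.10.9.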

Additional observations from a re-analysis of the deposited data

How the results depend on the processing

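In comparisons of 2 groups most alternatives gave 0 called members. Apart from DESeq2, whose shares stand above, the share of all genes called is not given for the alternatives. Their counts are therefore not read as particular to the members. With spike-in scaling the median slope per day was -0.51 over all genes and -0.48 over the members. Between Days 2 and 6, 2 were called by DESeq2, 5 when cells with a read were counted, and 34, all lower, with spike-in scaling. For eGFP++, DESeq2 called 2, and leaving out a sum gave 0 to 2; the latter (Atp5s and Cox7a1, lower) came without the main eGFP++ sum, where the lone pilot sum is assumed to vary like the other groups. From Day 3 to 4 and from Day 5 to 6, DESeq2 called 1 each and counting cells 1 each. For the slope, 7 were called by DESeq2, 2 with thinned cells (Uqcrh and Ndufa4), 4 by counting cells, 67 with spike-in scaling, 0 to 1 without single sums, and 0 without plates of few genes, an alternative chosen after seeing the data. Without the replicate block, that is the pairing by experiment, 0 were called for the slope, with Uqcrh at 0.30 per day (edgeR adjusted p = 0.130); it changed no other count of called members. Of 535 alternatives of 26 fitted values of named members, 18 turned the sign. Under spike-in scaling the log2 changes from Day 2 to Day 6 were Atp5d -1.30, Cox6b2 -0.13, Ndufa3 -1.32, Ndufb11 -1.06 and Uqcrh -0.92, and the slopes Atp5d -0.34, Atp5h -0.37, Cox6b2 -0.11, Ndufa3 -0.32, Ndufb11 -0.29, Ndufb3 -0.37, Ndufb5 -0.35 and Uqcrh -0.22. Counting cells gave Atp5k -0.065 from Day 4 to 5, Atp5a1 0.11, Atp5b 0.071 and Ndufa4 0.18 between Days 2 and 6, and a slope of 0.030 for Ndufa4. Per spike-in read, the log2 ratio of the members' sums of Day 6 to Day 2 was -2.58 in main and -1.71 in the pilot, and that of eGFP++ to Day 6 0.10 in the pilot. Without the 5 members with the most reads, Day 6 over Day 2 was 0.24 in main and 0.41 in the pilot. The cause was not tested. There are 2 experiments and no molecular identifiers, and the handling of reads that fit several gene copies is not stated in the labels.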
